A study of Mus musculus with 2 samples.

Results

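Genes for the factors that start and extend protein synthesis were compared between 2 cultures of mouse B-cell lymphoma. They form a list of 39 genes named by their roles, namely eIF1 and eIF1A, eIF2, its exchange factor eIF2B, eIF3, eIF4, eIF5 and eIF6, and the elongation factors. Of these, 33 could be followed through probe sets that carry their symbol alone, out of 18193 genes named in this way on the arrays. Eif1, Eif2s1, Eif3g and Eif4g1 were not analysed here. Eif3j1 and Eef1g were left out because the platform annotation gives their probe sets to a second gene as well. Each gene was read from its brightest probe set, which is a group of short probes read together. Some of these probe sets, called shared below, can also bind other transcripts.

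One array held RNA labelled Cdk4+/+:Eµ-Myc and the other RNA labelled Cdk4-/-:Eµ-Myc, both from lymph node lymphomas grown in medium with serum. Both genotypes carry the Eµ-Myc transgene, in which the immunoglobulin heavy chain enhancer drives Myc in B-lineage cells, and differ by label in Cdk4, a kinase of the early cell cycle. The number of mice behind each culture and their age are not given in the sources used here. The comparison asks how the Myc lymphoma without Cdk4 differs in RNA from the one with it. With 1 array per group there is no replicate, so no difference below has a test, and the number of arrays limits every statement.

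A cap-dependent messenger is read when eIF4E binds its cap, the scaffold eIF4G joins it to the helicase eIF4A, and eIF3 links this assembly to the small ribosomal subunit. That subunit carries eIF1, eIF1A and the initiator tRNA held by eIF2, which eIF2B recharges with GTP. The 4E-binding proteins hold eIF4E away from eIF4G until mTOR phosphorylates them. Translation factors such as eIF4E are known targets of Myc, and in Eµ-Myc mice raised eIF4E is known to hasten lymphoma.

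The labels and the Cdk4 signal went against each other. Its 3 probe sets read 1.19, 1.18 and 3.71 under the wild-type label and 4945, 4506 and 6958 under the null label. Directions below follow the labels as printed and would turn if the labels were exchanged. All 9 measured B-lineage markers were above the floor on both arrays, with summed signals of 55268 and 55695. The floor is a signal of 62.2, the median over both arrays, which stands in for a detection call. Of 6 T and NK cell markers 5 were below it on both arrays, among them Cd3e, Cd3d and Cd3g, and all 3 erythroid markers were below it. Summed signals of the 10 macrophage and granulocyte markers were 456 on the wild-type-labelled array and 4215 on the null-labelled array, with single markers from 1.27 to 114.7 and from 13.4 to 1889.7. Those of the 8 stromal and endothelial markers were 913 and 2107, with single markers from 3.19 to 695 and from 2.98 to 777. None was at 0, and C1qa, at 1.27, and Col1a1, at 3.19, were among those below the floor on the wild-type-labelled array. Their part in the differences below was not tested, and in RNA from whole cultures fewer cells of a type cannot be told apart from less RNA per cell.

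The translation factor genes differed little between the cultures, and most had a slightly lower signal under the null label. None of the 33 reached a 2-fold difference in either direction, while of 9418 genes measured above the floor in both cultures 4.26% were higher and 3.27% lower. At 1.5-fold, Eif4ebp1, which encodes an inhibitor of the cap-binding protein, was higher, and 0 members were lower, against 11.1% and 9.56% of all genes and 2.44% and 5.84% of the 942 genes in the brightest of 10 intensity bins. The members spanned log2 differences, null minus wild type, from -0.56 for Eif2b3 to 0.83 for Eif4ebp1, with a median of -0.13. Over all genes the median was 3.12e-05. Below 0 were 24 of the 33 members, or 72.7%, against 50.0% of all genes and 69.7% of the brightest bin. This bin holds 24 of the members, and its own median was -0.14.

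**Figure D1:**
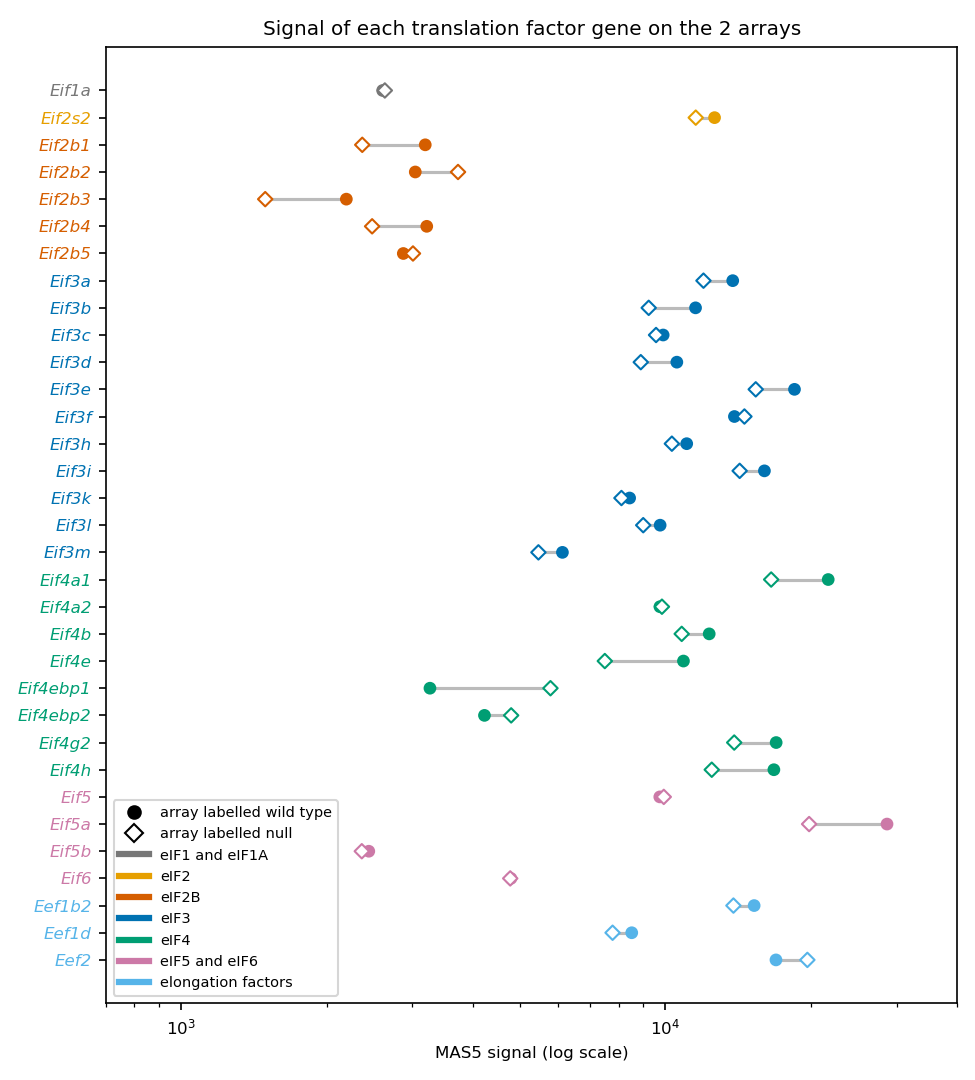
MAS5 signal of each measured translation factor gene on a log axis, with a filled circle for the wild-type-labelled array and an open diamond for the null-labelled array, coloured by factor group. Signals of different genes come from different probes and are not comparable; within a gene the diamond lies left of the circle for 24 of 33 genes, and the widest gap to the right is that of Eif4ebp1, at 3263 against 5787.

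The small shift towards lower values depended on the scaling of the arrays. When both arrays were given the same distribution of signals (quantile normalization), the median of the 33 members turned to 0.03 and 12 of them, 36.4%, lay below 0. With the median of each intensity bin subtracted, an alternative chosen after seeing the data, the median was -0.005 with 18 below 0. Control transcripts of the assay were shifted in both directions. All 18 probe sets of the bacterial and phage controls added before hybridization were lower on the null-labelled array, with a median of -0.88, and all 24 of the controls that follow labelling were higher, with a median of 0.43. The ratio of 3′ to 5′ signal, a sign of RNA integrity, was 1.17 on both arrays for Actb, and 0.80 and 0.81 for Gapdh. The part of the spike-in shifts in the members' differences was not tested.

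**Figure D2:**
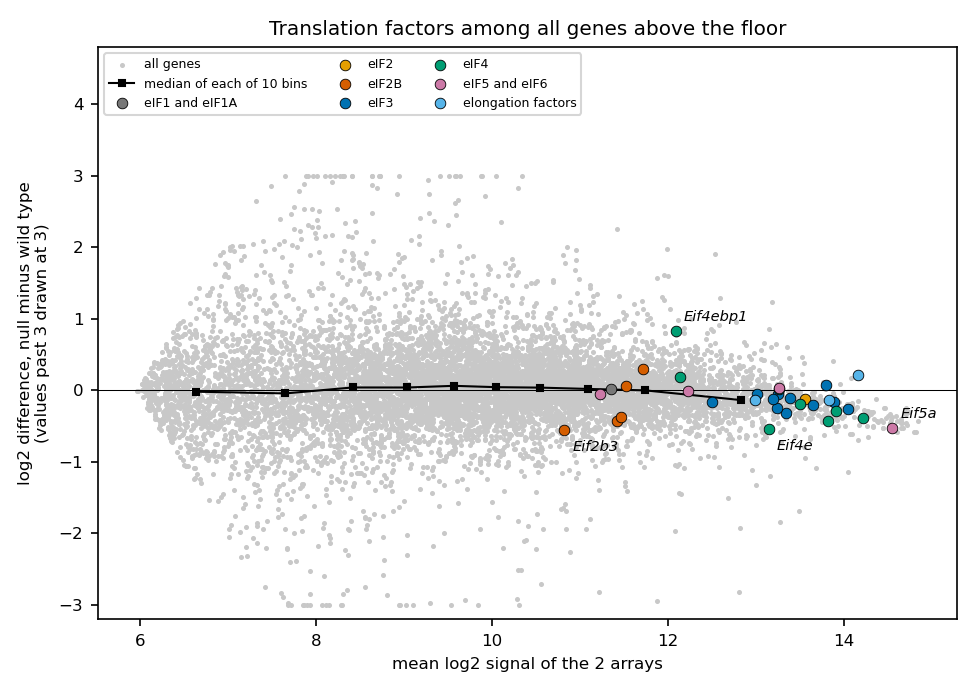
Log2 difference, null minus wild type, against the mean log2 signal for the 9418 genes measured in both cultures (grey), with the median of each of 10 intensity bins as a black line and the 33 translation factors coloured by group. The line falls to -0.14 in the brightest bin, where 24 of the members lie, while Eif4ebp1 stands above it at 0.83.

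An internal measure of error is the agreement of different probe sets of a gene. In 3082 genes with a second probe set, single probe sets of 1 gene scattered with an SD of 0.30 (log2), and over the 536 genes with both probe sets at a mean signal of 1000 or more it was 0.20. It covers the probes and not the variation between cultures or mice. Of the 33 members 24 lay within 0.30 of 0, or 72.7%, against 53.8% of all genes and 63.8% of the brightest bin. Beside the brightest probe sets, 20 members had 46 further ones above the floor, of which 27 had the sign of the brightest. None of the 46 reached 2-fold, and their range was -0.94 to 0.79 with a median of -0.07.

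The cap-binding group, eIF4, held the only member past 1.5-fold and the widest spread of any group, with an SD of 0.44 over 8 genes and a median of -0.24. That median turned to 0.03 under quantile normalization. Eif4e, which encodes the cap-binding protein, stood at 10892 on the wild-type-labelled array and 7494 on the null-labelled array, a 1.45-fold lower signal. Its next probe set read 3799 against 3065, also lower, and a dim one 406 against 468, higher. The gene lies on chromosome 3, where the median difference was -0.47 and 83.0% of 453 genes were below 0. Less that median, Eif4e was left at -0.07.

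Eif4ebp1, which encodes 4E-BP1, went the other way. It read 3263 against 5787, 1.77-fold higher under the null label, and its difference ranked higher than 93.7% of all genes. This brightest probe set is a shared one. The second probe set of Eif4ebp1, which is not shared, read 2301 against 3823, a log2 difference of 0.73. The dim remaining one read 130.0 against 152.4, at 0.23. Over the alternatives tried its difference lay between 0.60 and 0.86. Eif4ebp2, the gene of a second 4E-binding protein, read 4228 against 4800.4, at 0.18, while its other 3 probe sets above the floor lay between -0.18 and -0.02. Eif4ebp2 minus Eif4ebp1 gave a gap of -0.64, and between -0.66 and -0.55 over the alternatives, beside an SD of 0.43 for such a gap between 2 probe sets, or 0.28 between 2 bright ones. Set against Eif4e, the gap was 1.37, a 2.58-fold change of the Eif4ebp1 to Eif4e ratio between the arrays. It ranged from 0.76 to 1.37 over the alternatives and was thus in one direction in each, though its size depended on the probe sets taken and on the chromosome 3 shift.

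Of the helicase genes of the group, the main one was lower and its paralogue level. Eif4a1, the main eIF4A helicase, read 21681 against 16529.5, a difference of -0.39, with -0.35 and -0.25 on its other probe sets. Its difference was -0.01 under quantile normalization. Its close paralogue Eif4a2 read 9739.6 against 9833, at 0.01. The gap between them was 0.41, and 0.19 to 0.50 over the alternatives, beside an SD of 0.28 for a gap between 2 bright probe sets and 0.43 over all pairs. Of the helicase cofactors, Eif4b read 12311 against 10802, at -0.19, with its other probe sets at -0.07 and -0.55. Eif4h read 16744 against 12461, at -0.43, with its 2 other bright probe sets at -0.28 and -0.22. All 3 of these Eif4h probe sets are of the kind that can bind more than one transcript, and its brightest remaining one, at 335 against 359, was at 0.10. Eif4g2, a relative of eIF4G that works without the cap-binding protein, read 16927 against 13866, at -0.29, with its next probe sets at -0.16 and 0.07, and turned to 0.02 under quantile normalization.

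**Figure D3:**
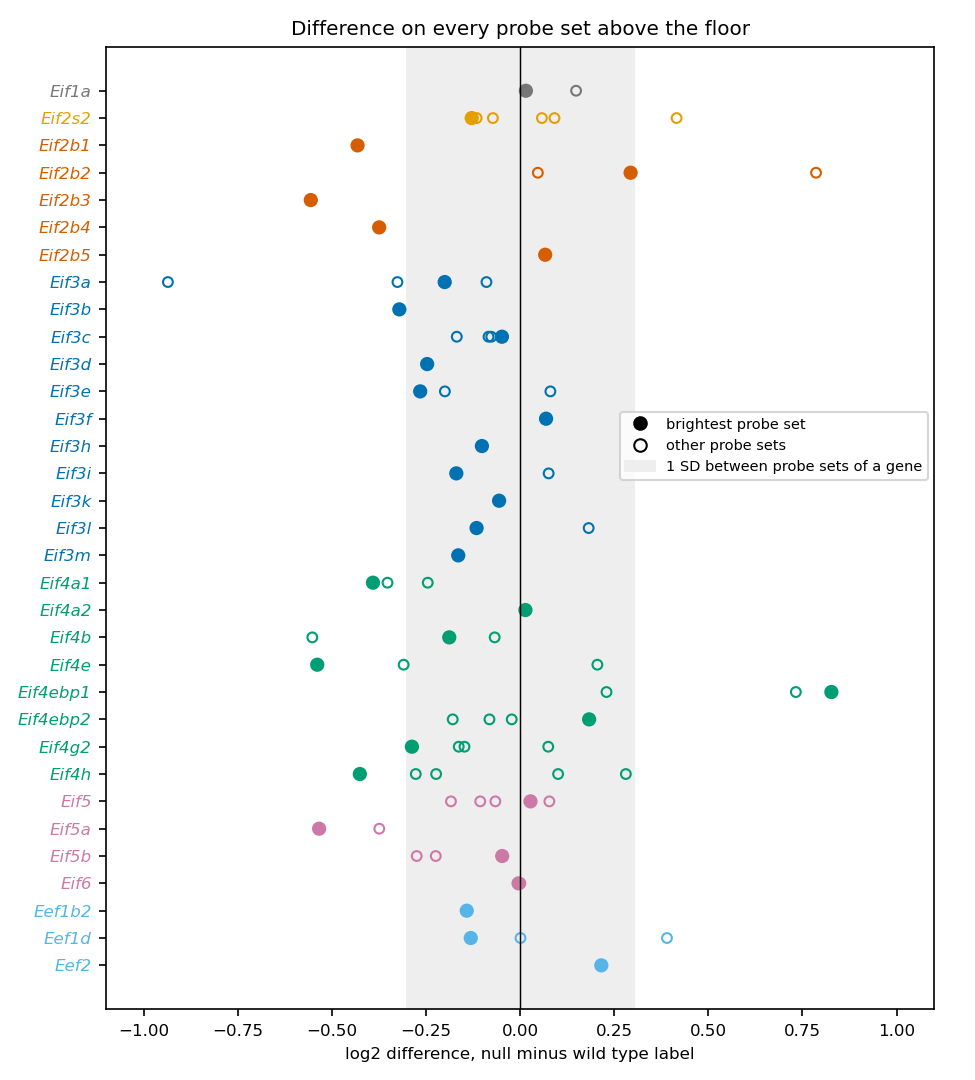
Log2 difference, null minus wild type, on every probe set above the floor for each translation factor gene, with filled circles for the brightest probe set and open circles for the others; the grey band is 1 SD of 0.30 between probe sets of a gene. Both bright Eif4ebp1 probe sets lie right of the band, at 0.83 and 0.73, and the probe sets of most eIF3 genes stay inside it.

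Promoters were searched for CACGTG, the E-box that Myc binds and a sequence that reads the same on both strands. RefSeq promoter windows of build GRCm38.p6, from 250 bases before to 50 after an annotated start, were at hand for 29 of the 39 genes. CACGTG was found in a window of 9 of them, or 31.0%, namely Eif4e, Eif4h, Eif4a1, Eif4g1, Eif5a, Eif3a, Eif3f, Eif3k and Eef2, against 8.09% of the 27025 genes in the table. Among measured members it was 8 of 24, or 33.3%, against 14.2% of the 795 genes of the brightest intensity bin with a window. The 4 genes with the lowest values among these 8, and Eef2 as the highest, are shown with the 250 bases before the start and CACGTG in capitals. Eif4e has 2 annotated starts and Eif5a 6, and the window printed for each is the first in the table with the motif.

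Eif4e, chr3:138527018-138527267, plus strand: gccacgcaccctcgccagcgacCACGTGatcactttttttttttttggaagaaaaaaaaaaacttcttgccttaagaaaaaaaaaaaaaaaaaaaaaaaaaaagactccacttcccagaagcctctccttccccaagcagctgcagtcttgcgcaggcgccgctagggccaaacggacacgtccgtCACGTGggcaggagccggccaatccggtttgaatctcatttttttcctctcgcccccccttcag
Eif5a, chr11:69921387-69921636, minus strand: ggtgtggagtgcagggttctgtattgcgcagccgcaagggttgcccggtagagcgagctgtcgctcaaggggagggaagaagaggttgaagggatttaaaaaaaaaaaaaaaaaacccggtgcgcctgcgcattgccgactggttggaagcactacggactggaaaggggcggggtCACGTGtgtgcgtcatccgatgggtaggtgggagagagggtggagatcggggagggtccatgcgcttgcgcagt
Eif4a1, chr11:69672424-69672673, minus strand: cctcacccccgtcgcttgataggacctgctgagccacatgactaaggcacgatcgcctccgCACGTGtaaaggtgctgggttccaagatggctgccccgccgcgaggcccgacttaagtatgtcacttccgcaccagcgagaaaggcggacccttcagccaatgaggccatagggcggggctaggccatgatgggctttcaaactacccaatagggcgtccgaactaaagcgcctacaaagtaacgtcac
Eif4h, chr5:134639410-134639659, minus strand: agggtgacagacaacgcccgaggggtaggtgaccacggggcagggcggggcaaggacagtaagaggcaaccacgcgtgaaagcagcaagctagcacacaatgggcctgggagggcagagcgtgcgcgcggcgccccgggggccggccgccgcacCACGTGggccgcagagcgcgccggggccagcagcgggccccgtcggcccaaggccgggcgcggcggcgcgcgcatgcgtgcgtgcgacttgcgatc
Eef2, chr10:81176381-81176630, plus strand: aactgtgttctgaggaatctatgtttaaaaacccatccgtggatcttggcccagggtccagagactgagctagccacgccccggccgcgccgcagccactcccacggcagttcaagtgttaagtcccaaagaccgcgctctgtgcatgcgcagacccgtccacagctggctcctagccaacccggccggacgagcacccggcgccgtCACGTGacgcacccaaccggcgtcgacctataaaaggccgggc

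In the Eif4e window the motif begins 228 and 64 bases before the start, in that of Eif5a 74, Eif4a1 189, Eif4h 96 and Eef2 43 bases before it. The 8 measured members with the motif had a median difference of -0.30, from -0.54 for Eif4e to 0.22 for Eef2, and 6 of them were below 0. The 16 without it had a median of -0.12 with 11 below 0. Under quantile normalization, run here after seeing the data, the medians turned to 0.02 with 4 of 8 below 0 and to 0.04 with 6 of 16 below 0. With bin medians subtracted the medians with and without the motif were -0.16 and 0.001, and with chromosome medians subtracted -0.18 and -0.13. The median with the motif was the lower one in each setting run. The size of the gap depended on the scaling and on the chromosome medians, and the contrast was not tested. Over the brightest bin the medians were -0.17 for 113 genes with the motif and -0.14 for 682 without. Myc itself read 15998 against 11857 on the only probe set named for it, which is a shared one. Its part in the members' differences was not tested. A match of letters is no proof of binding, and Eif4e and Eif4h lie on chromosomes 3 and 5, whose medians were -0.47 and -0.16. The element TGATGNAA, which ATF4 binds in amino acid stress, was searched on both strands and was in 0 of the 29 genes' windows, against 4.51% of all genes. Eif4ebp1 and Eif2b3, the highest and the lowest of the members by difference, are not among the 29 and were not searched for any of these sequences. A start of C followed by at least 4 bases of C or T is the mark of messengers that mTOR controls through their first bases. It was at the annotated start of Eif3f alone, 3.45% of the 29 against 3.01% of all genes. Only the exact annotated base was searched, so a true start a few bases away would be missed. These shares therefore do not tell which messengers carry the mark.

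The exchange factor eIF2B, whose 5 subunit genes were all measured, had the lowest median of the groups, -0.37, and its subunits differed in sign. Eif2b3, the gamma subunit, read 2192 against 1491, 1.47-fold lower on the null-labelled array and the lowest of all members. Eif2b1, the alpha subunit that senses phosphorylated eIF2, read 3191 against 2364.5, at -0.43. Eif2b4, the delta subunit, read 3213 against 2478, at -0.37. In the other direction Eif2b2, the beta subunit, read 3043 against 3729, at 0.29, with its other probe sets at 0.79 and 0.05. Eif2b5, the catalytic epsilon subunit, read 2874 against 3009.6, at 0.07. Eif2b1 and Eif2b4 lie on chromosome 5, and with chromosome medians subtracted the median of the group was -0.22. Eif2b1, Eif2b3 and Eif2b4 had no second probe set to check them. The eIF2B median kept its sign under each alternative run, between -0.43 and -0.22. The -0.43 came without shared probe sets, which left 3 of the 5 genes and dropped Eif2b2 and Eif2b4. Some of the alternatives could hardly change the median. Averaging probe sets could not move Eif2b1, Eif2b3 or Eif2b4, and 0 of the 5 genes lie in the brightest bin, whose median was furthest from 0.

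Of eIF2 itself only the beta subunit gene was measured. Eif2s2 read 12628 against 11548, at -0.13, and its 5 other probe sets lay between -0.12 and 0.42, with 2 of them below 0. The median of this group is that value and turned to 0.11 under quantile normalization. Eif1a, which keeps the scanning subunit open, read 2605 against 2633, at 0.015, with its other probe set at 0.15.

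The scaffold eIF3 varied least among the groups of more than 1 gene. Its 11 measured subunits lay between -0.32 and 0.07 with an SD of 0.11, below the probe set SD of 0.20 for bright genes, whereas the SD over all genes of the brightest bin was 0.35. Below 0 were 10 of the 11, and the median of -0.16 turned to 0.05 under quantile normalization. All 11 are in the brightest bin, and less its median 6 of 11 were below 0.

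Among the core subunits, Eif3a, the largest, read 13768 against 11980.2, at -0.20, with its other probe sets at -0.09, -0.33 and -0.94. Eif3b, which holds the core together with it, read 11537 against 9233.5, at -0.32, the lowest of the complex. It lies on chromosome 5 and has no second probe set. With chromosome medians subtracted Eif3b was at -0.17 and no longer the lowest, with Eif3a at -0.26. Eif3c read 9889.5 against 9561, at -0.05, with 3 further probe sets from -0.17 to -0.08. These 4 Eif3a and 4 Eif3c probe sets were all below 0. Eif3i and Eif3g bind Eif3b, and of these Eif3i read 16008 against 14229.9, at -0.17, with 0.08 on its other probe set.

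The outer subunits lay within the same narrow range. Eif3d, which can bind the cap of some messengers, read 10555 against 8892, at -0.25, and Eif3e 18468 against 15360.0, at -0.27, with its next probe sets at -0.20 and 0.08. Eif3l read 9749 against 8995, at -0.12, with a dim probe set at 0.18, and Eif3k 8432 against 8110.5, at -0.06. Eif3h read 11062 against 10309, at -0.10, and Eif3m 6126 against 5465, at -0.16. Eif3f was the only subunit above 0, at 13879 against 14555 and 0.07.

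By their brightest probe sets the late initiation factors lay near 0, apart from Eif5a. Eif5, which makes eIF2 spend its GTP at the start codon, read 9733 against 9919, at 0.03, with its other 4 probe sets between -0.18 and 0.08. Eif5b, which joins the large subunit, read 2439 against 2359, at -0.05, but lower on its other probe sets, at -0.22 and -0.28. The mean of its probe sets was -0.18. Eif6, which keeps the subunits apart, read 4794 against 4779, at -0.004, with 0.00049 on a dim second probe set. Eif5a, a hypusine-bearing factor that acts mainly in elongation, read 28676 against 19799, 1.45-fold lower on the null-labelled array, with its second probe set at 21105 against 16279.9, or -0.37. Both are probe sets that can bind further transcripts. Under quantile normalization Eif5a stood at -0.10, still below 0. The median of the group, -0.03, passed to 0.00049 without shared probe sets and to 0.03 with bin medians subtracted.

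The 3 measured elongation factors lay within 0.22 of 0. Eef1g, left out because its probe sets are also given to a second gene, read 25188.5 against 17906.6 on the brighter one, at -0.49. A dim one was at -0.22. Eef1b2 and Eef1d, which recharge eEF1A with GTP, read 15245 against 13814 and 8518 against 7776, at -0.14 and -0.13, while other Eef1d probe sets lay at 0.0007 and 0.39. Eef2, which moves the ribosome along the messenger, read 16912 against 19635, at 0.22, and at 0.58 under quantile normalization. With all 3 in the brightest bin, the median of -0.13 turned to 0.15 under that normalization.

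Genes around the factors, from lists of the same pathway, also stayed within 2-fold with a few exceptions among paralogues. Of 16 other initiation factor genes above the floor, 2 were at least 2-fold lower and 0 higher, against the same 3.27% and 4.26% of all genes. Eif1ax, the X-linked gene of eIF1A, read 13846 against 6051, 2.29-fold lower, with its other probe sets at -1.15 and -1.55, where Eif1a was at 0.015. Both Eif1a probe sets are shared ones, which can bind several transcripts. Eif5a2, the paralogue of Eif5a, read 452 against 115.7, 3.91-fold lower, with its other probe set at -1.29, and lies on chromosome 3.

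None of 9 other elongation and termination genes or of 14 cap-complex signalling and poly(A) genes reached 2-fold. Nor did any of 6 genes of eIF2 kinases and phosphatase subunits. Over all genes 4.26% were higher and 3.27% lower by this measure, so lists this short would hold few. Nearest to 2-fold were Pdcd4, which encodes an inhibitor of eIF4A, at 3912 against 1984 and 1.97-fold lower, and Tsc2, which restrains mTOR, at 981 against 599.7. Eef1a1, the tRNA carrier that Eef1b2 and Eef1d serve, read 34717 against 23081, at -0.59. Eef2k, the kinase that switches off eEF2, read 949 against 1304, at 0.46, but its other probe sets lay at -0.08 and 0.08. Of the eIF2 kinases, Eif2ak1 read 1675 against 1222, at -0.45, with its other 3 probe sets below 0 too, and Eif2ak2 a dim 229.7 against 152.4, at -0.59, with others from -0.04 to 0.39. The 8 mitochondrial translation factors had a median of -0.06, with Gfm2 at 0.63 and Gfm1, on chromosome 3, at -0.45. Second probe sets of Gfm2 and Gfm1 were at 0.16 and -0.44.

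With the main scaling, the median of the translation factors stood between those of 2 other classes of the protein synthesis machinery. Ribosomal protein genes of the cytosol, 39 of them measured, had their median at -0.37 and 36 below 0. That median turned to 0.02 under quantile normalization, beside 0.03 for the translation factors. The ribosomal protein genes had the lower median under both, but the size of their gap to the factors depended on the scaling. Rpl14 at 0.72 and Rps25 at -0.62 had the widest differences among the ribosomal protein genes. The 18 measured cytosolic tRNA synthetase genes had a median of 0.26 with 6 below 0, and between 0.24 and 0.29 over the alternatives. Of these, 3 were at least 1.5-fold higher and 0 lower, against 11.1% and 9.56% of all genes, and Aars was at 2282 against 4084 and Cars at 995 against 1593. The differences between these classes were not tested, since each group has 1 array.

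**Figure D4:**
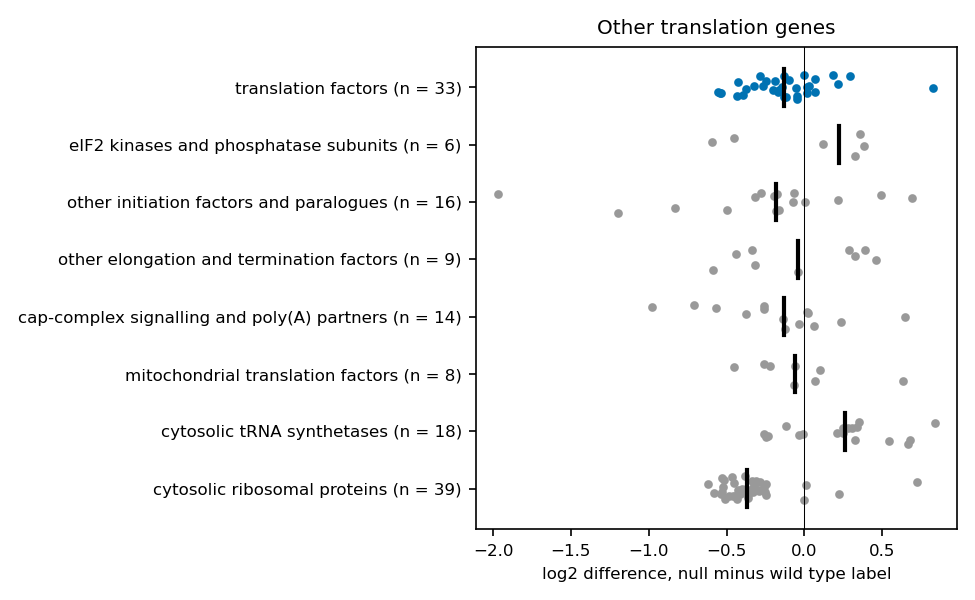
Log2 difference, null minus wild type, of single genes (points, spread vertically for legibility) and the median (black bar) of the 33 translation factors, in blue, and of related gene lists, in grey. Medians are -0.13 for translation factors, -0.37 for ribosomal proteins and 0.26 for tRNA synthetases; the lowest points among other initiation factors are Eif5a2 and Eif1ax.

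**Figure D5:**
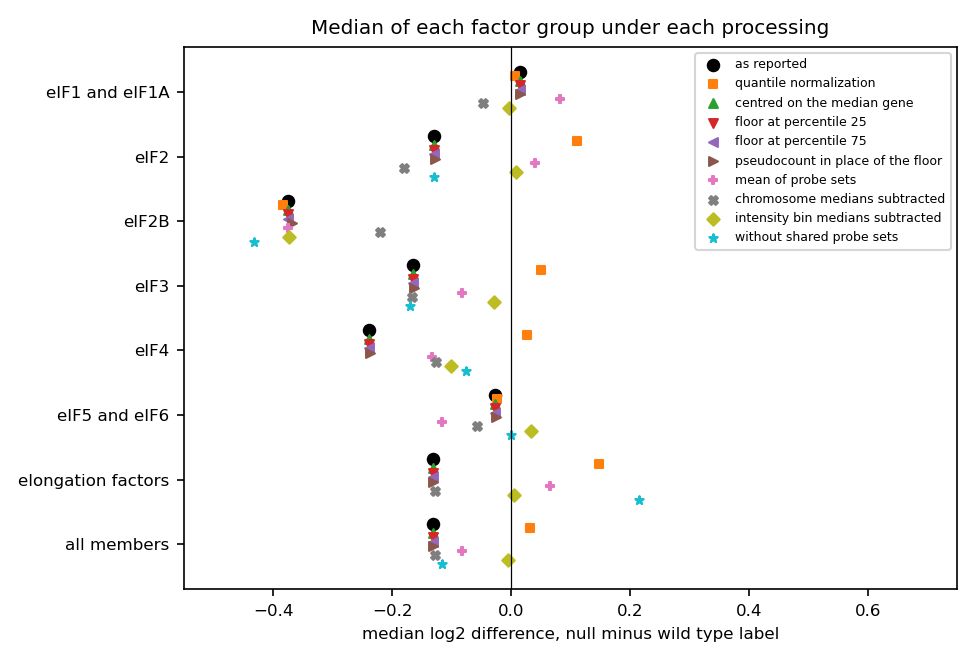
Median log2 difference, null minus wild type, of each factor group as reported (black) and under 9 alternative ways of processing (coloured). The eIF2B median stays left of 0 in all of them, and those of eIF2, eIF3, eIF4, the elongation factors and all members lie right of 0 under quantile normalization.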

How the data were processed

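RNA of 2 lymphoma cultures was measured on 1 Affymetrix mouse array each. The deposited values are linear signal intensities for 45101 probe sets, made by the authors using MAS5, per the submitters' processing notes; a version of it was not given in the sources used here. Such signals are scaled to a common mean, so a change in total RNA is not seen. The trimmed means, leaving out 2% at each end, were equal at 500.003, and both arrays were set to the same one. Signals below the floor of 62.2, the median without the 64 control probe sets, were set to it before log2. Probe sets were named from the platform annotation, with 1 symbol for 34945, several for 932 and none for 9160, and the brightest stood for its gene. Group medians, counts and members' differences were recomputed under 8 other settings and 1 chosen after seeing the data, with no value for members left without a probe set. All members were named; of other lists, genes at 2-fold and the 2 widest differences above the floor. The members and lists were chosen with earlier results of these data known. Counting was checked on simulated arrays. Python 3.11.15 with pandas 2.3.3 and numpy 2.4.6 was used.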

Additional observations from a re-analysis of the deposited data

How the results depend on the processing

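Counts at 2-fold (0 higher, 0 lower) and at 1.5-fold (1 higher, 0 lower) were the same under all 9 alternatives. Members below 0 numbered 24 of 33, 12 of 33 under quantile normalization and 15 of the 23 left without shared probe sets. Medians that changed sign under quantile normalization were those of all members (0.032), eIF2 (0.11), eIF3 (0.050), eIF4 (0.028) and the elongation factors (0.15). With the mean of probe sets eIF2 turned to 0.041 and the elongation factors to 0.065. Without shared probe sets the elongation factors turned to 0.22, from Eef2 alone, and eIF5 and eIF6 to 0.00049. With bin medians subtracted eIF1 and eIF1A turned to -0.0035, eIF2 to 0.0080, eIF5 and eIF6 to 0.033 and the elongation factors to 0.0055. With chromosome medians subtracted eIF1 and eIF1A turned to -0.046. These changes are within the probe set SD of 0.30 except that of the elongation factors without shared probe sets. The cause was not tested. Medians of the members with and without CACGTG, at -0.30 and -0.12, became 0.017 and 0.042 when quantiles were equalized. Of the values of single members under an alternative, 278 moved by less than that SD and 9 by more, and Eif4ebp1 stayed above 0 in each. No paired analysis was possible because each group has 1 array. All members lay far above the floor, so neither its level nor a pseudocount of 50 moved them beyond that SD.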
